A study of Mus musculus with 38 samples.

Results

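Interferon response genes are the genes that cells switch on, or use to receive the signal, when they meet interferons. A list of 41 such genes of the mouse type I and type II interferon systems was taken by gene symbol. All 41 were found among the 43346 gene rows of the deposited counts, and they were described over 4 macrophage populations sorted from the resting mouse lung. The mice were C57Bl/6, naive and aged 8 to 10 weeks, and no treatment was given to any group. Alveolar macrophages (AM), the macrophages of the airspaces, were sorted as CD11c+ Siglec F+ cells lacking CD11b, CD103, Gr1 and lymphocyte markers. Interstitial macrophages, the macrophages of the lung tissue itself, were first enriched for MerTK and then sorted as CD64+ CD11b+ cells. Their surface levels of MHC class II and of CD206, the mannose receptor, then gave 3 gates. IM1 cells were high for CD206 and low for MHC class II, IM2 cells were high for both, and IM3 cells were low for CD206 and high for MHC class II. Each population had 3 RNA-seq libraries, replicates A, B and C, each made from about 50000 cells. The labels do not say whether the replicates came from separate animals or pools, so the p-values measure only the spread between these libraries.

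Type I interferons bind a receptor made of IFNAR1 and IFNAR2, and interferon gamma binds one made of IFNGR1 and IFNGR2. Receptor-bound JAK kinases then phosphorylate STAT proteins. A STAT complex that holds STAT2 and IRF9 binds the interferon-stimulated response element (ISRE), whereas STAT dimers formed after interferon gamma bind the gamma-activated sequence, and the genes beneath these elements encode antiviral effectors, GTPases that attack intracellular pathogens, and brakes on the signal. Lung macrophages meet inhaled viruses early and are known both as sources of interferon and as cells that respond to it.

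The libraries held 11818981 to 15758326 assigned reads, so a value of 0 allowed up to 0.189 to 0.262 CPM (read counts per 1e6 reads, with library sizes scaled by TMM) in a library. Marker genes went with the labels. The summed level of 7 AM markers (such as Chil3, Siglecf and Marco) was 50400 to 57000 CPM in AM and 52.8 to 267 in the interstitial libraries. Chil3 made up most of the AM sum, at 48100 to 54700 CPM, while Siglecf was at 409 to 447. Each of the 7 was lower in every interstitial library than in any AM library. The 8 interstitial markers (such as C1qa, Apoe and Cx3cr1) summed to 19.3 to 23.8 CPM in AM and 16700 to 44200 in the interstitial libraries. Some measurements set libraries apart. In IM1, chi-square per degree of freedom between replicate pairs was 20.53 to 86.17 over all genes, against 8.99 to 24.89 in the other populations, the pairs with IM1 A being the most unlike. Genes known to respond to tissue dissociation and stress (13 genes, such as Fos, Jun and Dusp1) summed to 679 to 749 CPM in AM and 11900 to 20200 in the interstitial libraries. Of these genes, only Hspa1a and Hspa1b had AM and interstitial ranges that overlapped. Since AM were sorted apart from the others, population and handling cannot be told apart in any comparison with AM. Trac, a T-cell receptor segment, reached 4200 CPM in IM1 A, 1080 in IM2 B and 650 in IM3 B, while Cd3d and Cd3e stayed at or below 0.491 CPM in all 12 libraries. Markers of endothelium (5 genes, of which Cdh5, Cldn5, Tek and Kdr were at 0 in AM) summed to at most 0.0736 CPM in AM and to 27.9 to 56 in the interstitial libraries, and 5 fibroblast and muscle markers to 3.93 to 6.55 and 34.6 to 111. Conventional dendritic cell markers (6 genes) summed to 3.57 to 5.74 CPM in AM and 27.2 to 124 in the interstitial libraries. B cell markers (5 genes) summed to at most 1.54 CPM in AM and, mostly from Cd79b, to 32.5 to 68.4 in the interstitial libraries. Xcr1, Clec9a, Ccr7 and the other B cell markers had AM and interstitial ranges that overlapped. Summed neutrophil and epithelial markers were lower in the interstitial libraries than in AM. Many interferon genes are also expressed by such other cells, and their part in the results was not tested. In sorted bulk RNA, fewer cells of a type and less RNA per cell cannot be told apart.

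Most of the interferon genes were higher in interstitial macrophages than in AM, but the list did not move as 1 block. Of the 41 genes, 27 were higher and 5 lower in the mean of the 3 interstitial populations than in AM (edgeR's quasi-likelihood test across 14095 genes, with Benjamini-Hochberg adjusted p under 0.05). Over all genes tested, 35.9% were called higher and 28.7% lower, so the interferon genes held a larger share of higher calls (65.9%) and a smaller share of lower ones (12.2%). The median log2 fold change of the 41 genes was 1.05, beside 0.1 over all genes tested. All 41 passed the filter on low counts, but Ifitm1, Ifitm3, Ifitm6, Mx2 and Ifi44 passed through interstitial libraries only. Of the other 36 genes, 22 were higher and 5 lower. The genes that did not pass the test were Zbp1, Ifit1, Ifit2, Oas3, Oasl1, Isg15, Rsad2, Isg20 and Ifi35, which include several of the genes best known for their induction by type I interferon.

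**Figure D1:**
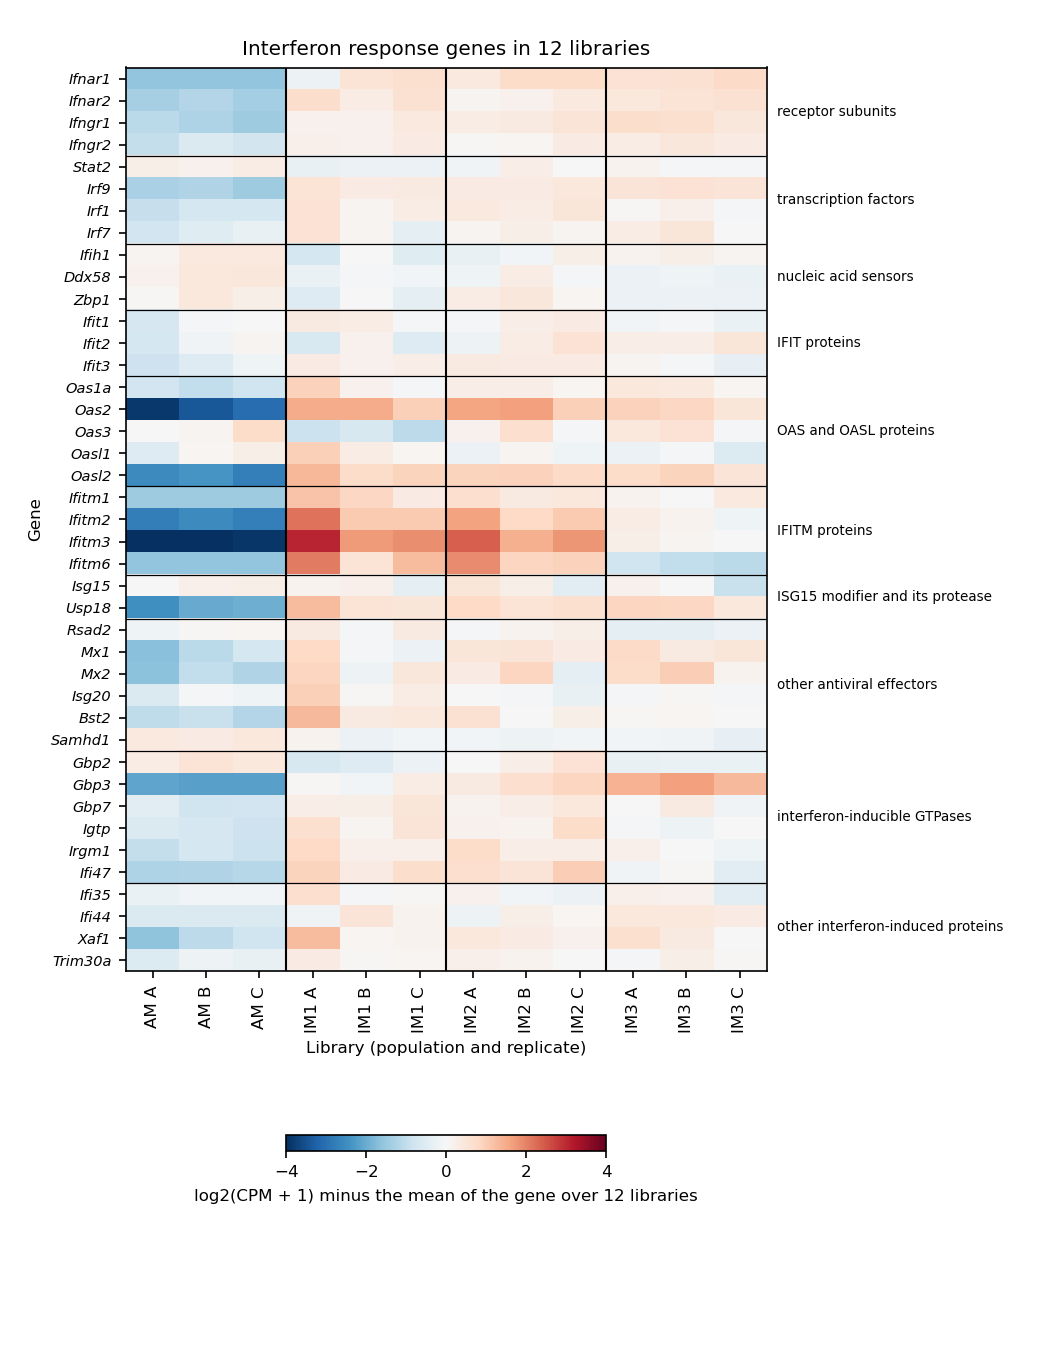
Levels of the 41 interferon response genes (rows, grouped by role) in the 12 libraries (columns), as log2(CPM + 1) minus the mean of each gene over the 12 libraries. Oas2, Oasl2, Ifitm2, Ifitm3, Usp18 and Gbp3 are low in the 3 AM libraries and high in the 9 interstitial ones, Gbp3 is highest in IM3, and the sensors, Stat2 and Samhd1 show little contrast or the opposite one.

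Taken separately, the 3 interstitial populations gave similar counts, although these comparisons share the same AM libraries. In IM1, 28 genes were higher and 7 lower than in AM, where 33.1% and 25.7% of all genes were so called. In IM2, 27 were higher and 1 lower (all genes: 34.3% and 26.2%), and in IM3, 27 were higher and 4 lower (all genes: 32.4% and 25%). The medians over the 41 genes were 1.16, 1.09 and 0.87 for IM1, IM2 and IM3, beside 0.12, 0.11 and 0.09 over all genes, and setting the 3 genes without AM counts to their lower bounds left these medians at 1.16, 1.09 and 0.87. Of the 41 genes, 27 were higher than AM in all 3 populations (65.9%, beside 25.7% of all genes tested) and 1, Samhd1, was lower in all 3 (2.44%, beside 18.7%). These 27, and the higher calls of each population, include Ifitm1, Ifitm3, Ifitm6, Mx2 and Ifi44, which passed the low-count filter through interstitial libraries only. For such genes the filter favours a higher call. No gene was called higher in one and lower in another, a pattern that was also rare over all genes (0.731%).

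**Figure D2:**
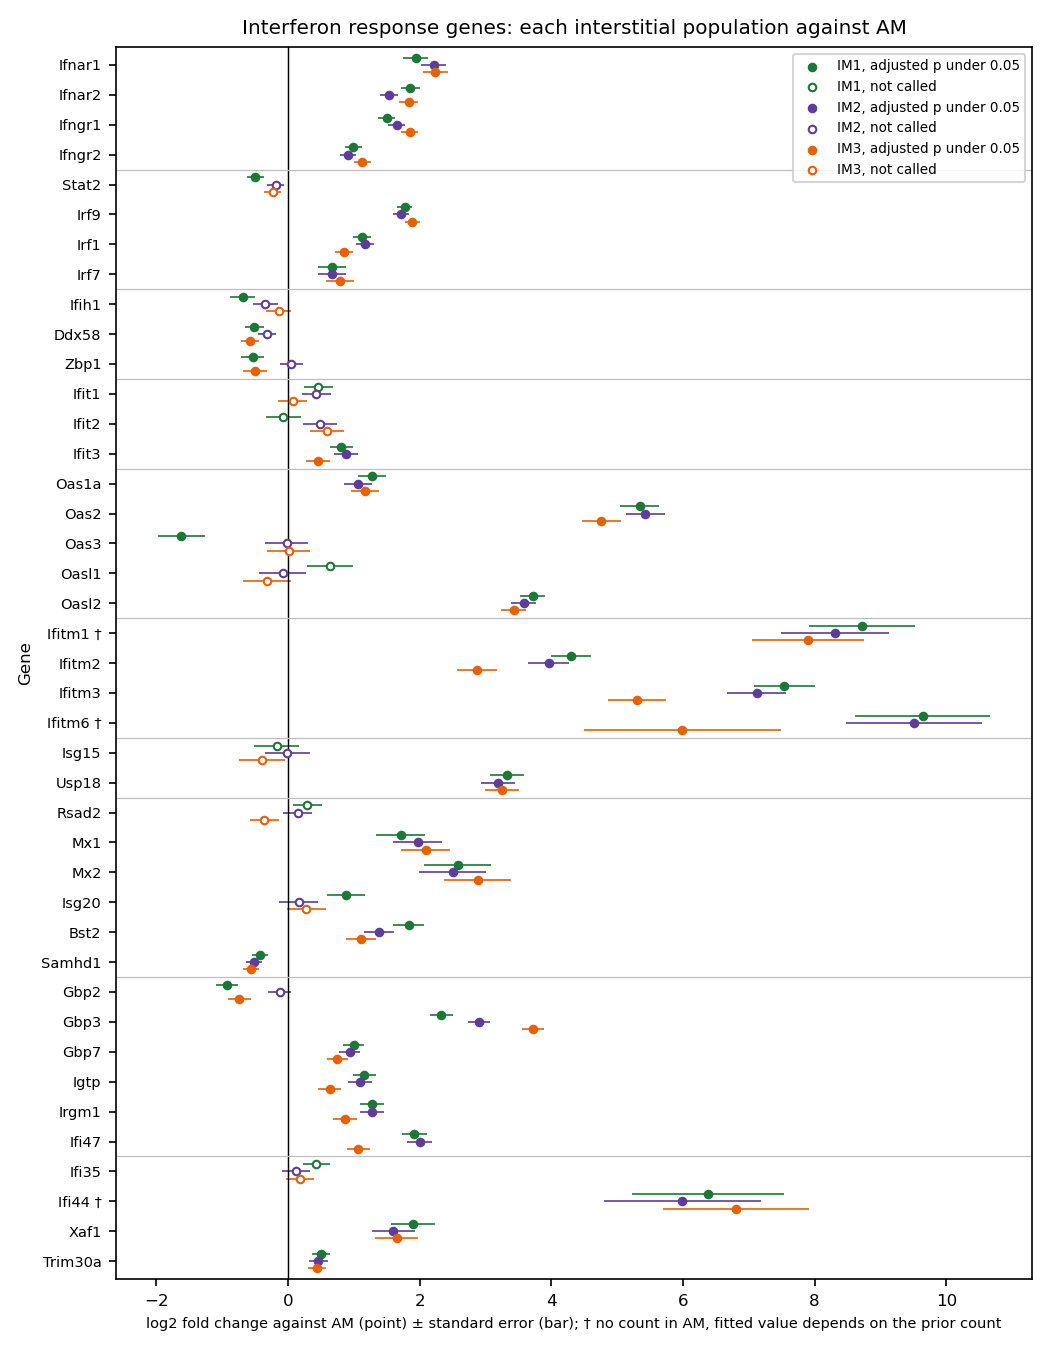
Log2 fold change of each interferon response gene in IM1, IM2 and IM3 against AM (points, with bars of 1 standard error), filled where the adjusted p was under 0.05. The IFITM genes, Oas2, Oasl2, Usp18 and Gbp3 lie furthest to the right, whereas the points of Ifit1, Ifit2, Isg15 and Rsad2 are open in all 3 populations.

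The receptor subunits were higher in every interstitial library than in any AM library. Positions given here span the whole annotated gene (GENCODE M21, mm10). Ifnar1 (chr16:91485238-91507441), the signalling subunit of the type I receptor, stood at 83.7, 84.4 and 83.7 CPM in AM replicates A, B and C. It reached 212, 365 and 392 CPM in IM1, 327, 417 and 420 in IM2, and 380, 387 and 425 in IM3. The AM libraries were nearly identical, and IM1 A was the lowest interstitial library. The interstitial mean was 2.13 ± 0.17 log2 units (fold change ± standard error, SE) above AM, with an adjusted p of 1.96e-08. Ifnar2 (chr16:91372783-91405589), the ligand-binding partner of Ifnar1, had 45, 50.7 and 43.7 CPM in AM, and 188, 140 and 177 in IM1, 123, 130 and 149 in IM2, and 154, 166 and 175 in IM3. It was 1.74 ± 0.12 log2 units higher (adjusted p 3.79e-09).

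Ifngr1 (chr10:19591949-19610229), which binds interferon gamma, was at 213, 192 and 167 CPM in AM. The level was 510, 510 and 598 in IM1, 559, 584 and 652 in IM2, and 732, 708 and 622 in IM3, a difference from AM of 1.67 ± 0.12 log2 units (adjusted p 3.78e-09). The smallest difference was that of Ifngr2 (chr16:91547072-91565623), the signal-transducing chain of the gamma receptor, at 1.01 ± 0.11 (adjusted p 5.94e-07). Its levels were 95.3, 122 and 109 CPM in AM, 212, 206 and 233 in IM1, 191, 194 and 231 in IM2, and 227, 253 and 233 in IM3. For neither receptor did a pair of interstitial populations pass the test. Scaled per kilobase of gene model, Ifngr1 was the most abundant of the 41 genes in AM, with a mean of 66.9 CPM per kb, and Ifngr2 came next with 32.8.

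Of the transcription factors, 3 were higher in interstitial macrophages and 1 was lower. Irf9 (chr14:55603571-55610030), a DNA-binding part of the ISRE-binding complex, was at 24.9, 26.5 and 22.5 CPM in AM. In IM1 it was at 92.1, 79.5 and 80.1, in IM2 at 78.4, 79.3 and 84.4, and in IM3 at 90, 94.8 and 89.9. It was 1.79 ± 0.11 log2 units higher (adjusted p 5.72e-10), with no overlap between AM and the interstitial libraries. Its partner Stat2 (chr10:128270559-128292849) went the other way: 99.9, 95.6 and 106 CPM in AM, 68.7, 73 and 72 in IM1, 77.8, 103 and 83.8 in IM2, and 94.1, 81.4 and 80.8 in IM3. The interstitial mean was lower than AM (log2 -0.31 ± 0.10, adjusted p 0.0164), a call that was lost without AM C (log2 -0.27, adjusted p 0.0783). Against AM, only IM1 passed the test for Stat2 on its own (log2 -0.50, adjusted p 0.00361), and IM2 B lay within the AM range.

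Irf1 (chr11:53770014-53778374), an early interferon target and itself an activator, rose from 66.4, 78 and 76.4 CPM in AM to 191, 135 and 154 in IM1, 166, 154 and 176 in IM2, and 130, 146 and 123 in IM3. This was 1.05 ± 0.12 log2 units (adjusted p 1.38e-06), with separate ranges. Irf7 (chr7:141262706-141266481), which amplifies interferon production, was 29.3, 35.3 and 41.2 CPM in AM, 75.4, 54.3 and 39.1 in IM1, 54.5, 59.5 and 54 in IM2, and 62.6, 70.1 and 49.8 in IM3. It was higher by 0.71 ± 0.17 (adjusted p 0.00223), although IM1 C lay below AM C. Without AM A, the IM1 and IM2 calls for Irf7 were lost (adjusted p 0.0598 and 0.0605), and without IM1 A the IM1 call was (adjusted p 0.0522). The gene models of Irf9, Irf1 and Irf7 each overlap another gene, and reads shared between genes were not counted.

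The 3 cytosolic sensors in the list were the group in which no gene was higher. Ddx58, which encodes the RNA sensor RIG-I, was at 75.7 to 91.4 CPM in AM and 54.9 to 83.2 in the interstitial libraries (log2 -0.47 ± 0.11, adjusted p 0.00173). Ifih1, the RNA sensor MDA5, ranged from 32.9 to 39.7 CPM in AM and from 18.1 to 36.1 in the interstitial libraries (log2 -0.39 ± 0.15, adjusted p 0.0316). Its adjusted p was over the threshold in each of 7 fits that left out 1 library, reaching 0.116 without AM B. Zbp1, a sensor of left-handed nucleic acid helices, had a log2 difference of -0.33 ± 0.14 that missed the threshold (adjusted p 0.0514) and passed it in 5 alternatives. It was lower than AM in IM1 (log2 -0.54, adjusted p 0.0162) and IM3 (log2 -0.50, adjusted p 0.0248). Both calls were lost without AM B (adjusted p 0.0746 and 0.107). The IM3 call was also lost without AM C or any 1 IM3 library (adjusted p 0.0553 to 0.0626). The IM1 call was also lost without IM1 C (adjusted p 0.0544). In IM2, Zbp1 stood at 20, 22.7 and 17.2 CPM beside 16.7, 22 and 19.4 in AM.

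Promoters were described next, because both the genes called as different and the genes not called include known targets of the same factors. A gene that was not called may still differ. RefSeq promoters (GRCm38.p6, from 250 bases before to 50 after each start) were matched by symbol for 36 of the 41 genes. The ISRE core was searched as GAAA, then 2 bases of any kind, then GAAA, on either strand. It was found in 18 of the 36 genes (50%), beside 3.99% of all 27025 gene symbols with a promoter. A gene with several promoters was counted if any of them matched. Among the 23 genes with a promoter that were higher in interstitial macrophages, 10 (43.5%) held it. Among the 13 that were lower or not called, 8 (61.5%) did. These shares were not compared by a test. The higher group includes the receptor subunits, none of which held a match. Oas2, Usp18, Mx1 and Mx2, which were also higher, and Zbp1, which was not called, had no promoter entry. The gamma-activated core TTCNNNGAA, which reads the same on both strands, was in 13 of 36 genes (36.1%), beside 9.55% of all gene symbols with a promoter. It was in 9 of the 23 (39.1%) and in 4 of the 13 (30.8%). The windows below show, for 11 of the genes, the matches that lie before the start, in capitals, on the strand of the gene, so that a match on the other strand reads TTTC, 2 bases, TTTC. The first 6 belong to genes that were higher in interstitial macrophages, and the last 5 to genes that were lower (Stat2) or not called.
Ifitm2 (chr7:140955988-140956032, minus strand): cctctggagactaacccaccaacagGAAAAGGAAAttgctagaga
Oas1a (chr5:120907526-120907570, minus strand): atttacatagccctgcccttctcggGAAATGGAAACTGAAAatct
Bst2 (chr8:71537562-71537627, minus strand): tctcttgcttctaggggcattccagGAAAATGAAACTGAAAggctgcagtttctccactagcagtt
Gbp3 (chr3:142559974-142560025, plus strand): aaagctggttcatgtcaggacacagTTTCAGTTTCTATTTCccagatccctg
Igtp (chr11:58199497-58199555, plus strand): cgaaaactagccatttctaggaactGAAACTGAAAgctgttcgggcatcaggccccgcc
Ifit3 (chr19:34583348-34583441, plus strand): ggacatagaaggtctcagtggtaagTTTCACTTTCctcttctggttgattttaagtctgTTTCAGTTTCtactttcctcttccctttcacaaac
Isg15 (chr4:156200850-156200921, minus strand): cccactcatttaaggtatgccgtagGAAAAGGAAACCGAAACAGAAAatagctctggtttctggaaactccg
Ifit1 (chr19:34640760-34640838, plus strand): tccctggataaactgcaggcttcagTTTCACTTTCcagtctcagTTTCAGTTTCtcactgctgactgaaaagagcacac
Rsad2 (chr12:26456538-26456597, minus strand): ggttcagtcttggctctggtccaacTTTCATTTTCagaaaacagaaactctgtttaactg
Oas3 (chr5:120777700-120777759, minus strand): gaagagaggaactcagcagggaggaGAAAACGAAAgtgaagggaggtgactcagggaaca
Stat2 (chr10:128270251-128270310, plus strand): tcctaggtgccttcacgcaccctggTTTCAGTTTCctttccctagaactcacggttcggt
Isg15, which was not called, held the longest run, with 3 overlapping matches between 78 and 57 bases before its start. Ifitm3, the gene with the largest fold change among those counted in AM, had matches after its start, which are not shown. Gbp7 and Trim30a (higher) also had matches before the start that are not shown. The matches of Irgm1 (higher) and Gbp2 (lower) lay before the RefSeq start but inside the annotated gene, and are not shown either. A match describes the letters of a window and does not show that a factor binds there.

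The IFIT proteins, which bind viral RNA, divided by gene. Ifit3 was higher in interstitial macrophages (9.6 to 15.7 CPM in AM, 14.2 to 23.4 in the interstitial libraries), by 0.71 ± 0.15 log2 units (adjusted p 0.000818). Its call in IM3 alone was marginal (log2 0.45, adjusted p 0.0485) and was lost in 10 alternatives, with an adjusted p of 0.231 without AM A. Ifit1 had 6.59 to 11.3 CPM in AM and 9.13 to 14.5 in the interstitial libraries, with a difference of 0.32 ± 0.18 that did not pass the test (adjusted p 0.134). Ifit2, with 10.4 to 19.2 and 11.1 to 26.6 CPM, had 0.34 ± 0.22 (adjusted p 0.189). In IM3 alone, Ifit2 was 0.59 from AM, a larger value than that of Ifit3, and did not pass the test (adjusted p 0.0669), although it did in 8 alternatives. The AM and interstitial ranges overlapped for all 3 genes, of which Ifit1 and Ifit3 each hold 2 ISRE matches in the promoters above.

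Within the oligoadenylate synthetase family, neighbouring genes had unlike patterns. Oas2 (chr5:120730333-120749853), one of the synthetases that make oligoadenylates on meeting double-stranded RNA, was at 0.981, 1.75 and 2.5 CPM in AM. It was at 79.8, 78.7 and 54.3 in IM1, 84.7, 87.7 and 54.1 in IM2, and 53.3, 49.5 and 38.8 in IM3. Every interstitial library was above every AM library, and the difference was 5.18 ± 0.28 log2 units (adjusted p 1.8e-10). Oas3 (chr5:120753098-120777661), on the same stretch of chromosome, was at 3.36, 3.72 and 6.19 CPM in AM, 1.4, 1.79 and 1.1 in IM1, 3.91, 5.96 and 3.22 in IM2, and 4.83, 5.43 and 3.11 in IM3. Here the 3 IM1 libraries were below all others, while AM, IM2 and IM3 overlapped. Oas3 was lower in IM1 than in AM (log2 -1.62 ± 0.36, adjusted p 0.00127), and the interstitial mean did not pass the test (log2 -0.54 ± 0.27, adjusted p 0.0914).

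Oasl2 (chr5:114896936-114912234), a family member with ubiquitin-like repeats, was at 6.94, 8 and 5.89 CPM in AM. In IM1 it was at 115, 75.9 and 84, in IM2 at 84.9, 87 and 77.6, and in IM3 at 75.1, 84.6 and 64.7. The ranges were far apart, and the difference was 3.57 ± 0.17 log2 units (adjusted p 4.33e-11). Its neighbour Oasl1, a restraint on Irf7 translation, was at 1.89 to 3.9 CPM in AM and 1.83 to 6.99 in the interstitial libraries (log2 0.08 ± 0.29, adjusted p 0.825). Oas1a was higher by 1.17 ± 0.18 (adjusted p 3.25e-05), with 38.9 to 45.7 CPM in AM and 74.5 to 150 in the interstitial libraries. Oas1a has close paralogs, so its reads may be divided between genes.

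The IFITM genes, a cluster on chromosome 7 that encodes small membrane proteins blocking the entry of viruses, were higher in every interstitial library than in any AM library. Ifitm3 (chr7:141009586-141010770) was at 0.631, 0.842 and 1.33 CPM in AM. It was at 289, 111 and 124 in IM1, 181, 92.4 and 118 in IM2, and 40.2, 36.7 and 33.5 in IM3. The populations fell in order, with AM lowest, IM3 next and IM1 and IM2 overlapping at the top. The interstitial mean was 6.65 ± 0.43 log2 units above AM (adjusted p 1.38e-09). Ifitm2 (chr7:140954837-140955987) was at 12.2, 14.6 and 12.7 CPM in AM, 409, 187 and 185 in IM1, 274, 157 and 184 in IM2, and 111, 99 and 79.1 in IM3, a difference of 3.71 ± 0.28 log2 units (adjusted p 1.18e-08). Per kilobase, Ifitm2 was the most abundant of the 41 genes in IM1 (416 CPM per kb) and IM2 (327), and Ifngr1 was in IM3 (241).

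Ifitm6 (chr7:141015699-141017924) had no count in any AM library. It was at 11.6, 3.38 and 6.16 CPM in IM1, 10.1, 4.42 and 4.67 in IM2, and 0.728, 0.513 and 0.406 in IM3, so that IM3 stood between AM and the other populations. Taking 3 counts over the AM group as the limit that 0 counts allow, Ifitm6 was at least 93.4-fold higher in IM1, 87.6-fold in IM2 and 7.74-fold in IM3. Ifitm1 (chr7:140967221-140969825) was likewise without a count in AM, and was at 4.98, 3.78 and 2.4 CPM in IM1, 3.31, 2.45 and 2.59 in IM2, and 1.99, 1.69 and 2.57 in IM3, at least 39.4-fold higher over the 9 interstitial libraries. The limits cover counting error only.

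**Figure D3:**
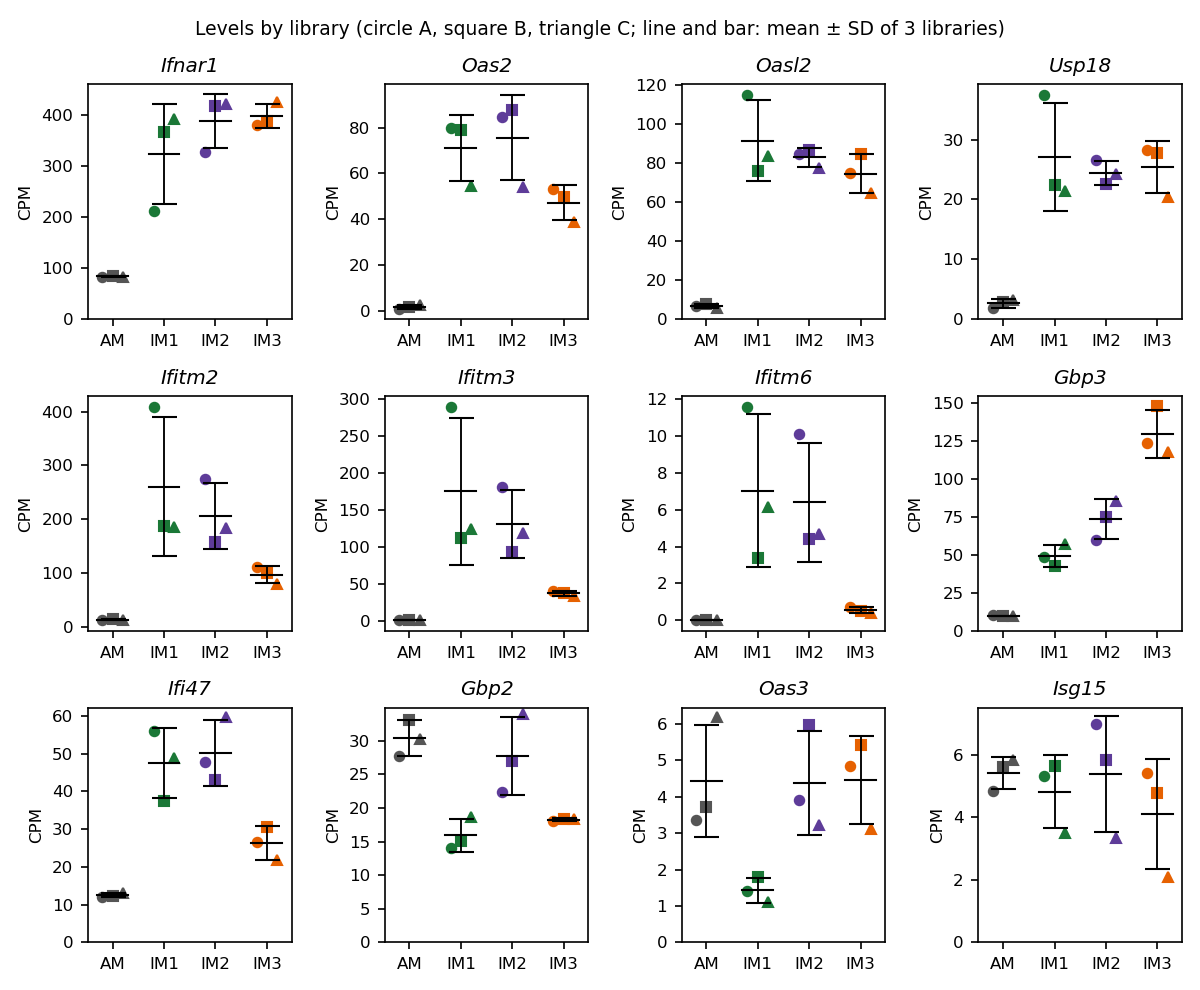
CPM of 12 interferon response genes in each library (circle A, square B, triangle C), with the mean and SD of 3 libraries per population. The AM points of Ifnar1, Oas2, Oasl2, Usp18, Ifitm2, Ifitm3, Gbp3 and Ifi47 lie below all interstitial points, and IM1 A is the highest point for Ifitm2, Ifitm3 and Ifitm6 and the lowest interstitial point for Ifnar1.

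ISG15, a ubiquitin-like modifier, and USP18, the protease that removes it and dampens type I receptor signalling, differed in pattern. Usp18 (chr6:121245906-121270917) was at 1.89, 2.95 and 3.17 CPM in AM, 37.4, 22.4 and 21.4 in IM1, 26.6, 22.5 and 24.2 in IM2, and 28.2, 27.7 and 20.4 in IM3. Its ranges were separate and the difference was 3.26 ± 0.24 log2 units (adjusted p 7.13e-09). Isg15 was at 4.83 to 5.82 CPM in AM and at 2.1 to 7 in the interstitial libraries, with a difference of -0.20 ± 0.28 (adjusted p 0.555).

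Of 6 other antiviral effectors, 3 were higher and 1 was lower. Mx2 (chr16:97535308-97560900), a dynamin-like antiviral GTPase annotated here as a polymorphic pseudogene, was at 0.35, 1.12 and 0.81 CPM in AM. It was at 6.55, 2.59 and 4.74 in IM1, 4.29, 6.59 and 2.21 in IM2, and 6.02, 7.33 and 3.65 in IM3, which was 2.65 ± 0.46 log2 units higher with separate ranges (adjusted p 0.000109). Mx1, its paralog, had 0.911 to 2.72 CPM in AM and 4.09 to 9.44 in the interstitial libraries (log2 1.92 ± 0.33, adjusted p 9.46e-05). Bst2, or tetherin, which holds budding virions at the cell surface, was at 17.6 to 21.5 CPM in AM and 41.2 to 101 in the interstitial libraries (log2 1.44 ± 0.20, adjusted p 1.02e-05). Bst2 is also a marker of plasmacytoid dendritic cells. Of a list of 5 such markers, Klk1 was at 0 in all libraries and Ccr9 at no more than 1.23 CPM. Pacsin1 was at 0.912 to 2.58 CPM in AM and at most 0.281 in the interstitial libraries. Cox6a2 was at 0.0736 to 0.211 CPM in AM and 0.293 to 2.8 in the interstitial libraries. Siglech was at 0 in AM, 248 to 409 CPM in IM1 and IM2 and 22.7 to 37.5 in IM3, and made up most of the summed level of the 5 markers, which was 1.61 to 2.87 CPM in AM, 250 to 412 in IM1 and IM2 and 24 to 38.8 in IM3. The part of such cells in the Bst2 result was not tested.

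Samhd1, which depletes the nucleotides that retroviruses need, was the gene called lower in all 3 interstitial populations. Its level was 265 to 284 CPM in AM and 170 to 236 in the interstitial libraries, with no overlap (log2 -0.50 ± 0.10, adjusted p 0.00024). Rsad2, the radical enzyme viperin, was at 5.11 to 6.33 CPM in AM and 4.33 to 7.95 in the interstitial libraries (log2 0.03 ± 0.18, adjusted p 0.895). The exonuclease gene Isg20 was at 2.52 to 4 and 3.28 to 9.09 CPM (log2 0.44 ± 0.25, adjusted p 0.13). Against AM, Isg20 passed the test in IM1 alone (log2 0.88, adjusted p 0.0163), and did not without IM1 A (adjusted p 0.114) or without AM A (adjusted p 0.0802).

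Among the interferon-inducible GTPases, guanylate-binding proteins and immunity-related GTPases that act on the vacuoles of intracellular microbes, 5 of 6 were higher and Gbp2 was lower. Gbp3 (chr3:142560026-142573209) was at 10.2, 9.75 and 9.72 CPM in AM, 48.7, 43 and 57.3 in IM1, 60.1, 75.4 and 86 in IM2, and 124, 148 and 118 in IM3. No library of a population overlapped one of another, and the interstitial mean was 2.98 ± 0.16 log2 units above AM (adjusted p 9.49e-11). Gbp2 (chr3:142620602-142638008), in the same cluster, was at 27.7, 33.1 and 30.3 CPM in AM, 14, 15.1 and 18.6 in IM1, 22.4, 27 and 33.9 in IM2, and 18, 18.3 and 18.4 in IM3. IM2 overlapped AM, while IM1 and IM3 lay below it. The interstitial mean of Gbp2 was lower than AM (log2 -0.60 ± 0.13, adjusted p 0.000958).

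Ifi47 (chr11:49076587-49096974), an immunity-related GTPase, was at 12.1, 12.4 and 13 CPM in AM, 56, 37.5 and 48.8 in IM1, 47.8, 42.9 and 59.8 in IM2, and 26.7, 30.5 and 21.7 in IM3. IM3 lay between AM and the other populations, and the interstitial mean was 1.67 ± 0.16 log2 units above AM (adjusted p 2.26e-07). Irgm1, Igtp and Gbp7 were higher than AM in every interstitial library, by 1.14 ± 0.15, 0.96 ± 0.16 and 0.90 ± 0.13 log2 units (adjusted p 8.23e-06, 5.6e-05 and 2.42e-05). The gene models of Igtp and Ifi47 overlap others, and Gbp3 and Gbp7 are close relatives, so counts of these genes may be incomplete.

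Of the last 4 genes, Ifi44 (chr3:151730922-151749960) had no count in AM and was at 0.35, 1.13 and 0.649 CPM in IM1, 0.301, 0.772 and 0.568 in IM2, and 0.993, 1.03 and 0.88 in IM3. It was at least 10.6-fold higher over the interstitial libraries, at levels close to the lowest that these libraries could show. Xaf1, a promoter of cell death, was higher by 1.72 ± 0.29 log2 units (adjusted p 8.34e-05; 3.22 to 6.41 CPM in AM, 11.9 to 29.9 in the interstitial libraries). Trim30a, a regulator of inflammatory signalling, was higher by 0.47 ± 0.11 (adjusted p 0.00212), and its IM2 and IM3 calls were lost without AM A (adjusted p 0.0579 and 0.0771). Ifi35 did not pass the test (log2 0.24 ± 0.18, adjusted p 0.248).

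Between interstitial populations few of the genes differed. The test for any difference among IM1, IM2 and IM3 called 8 of the 41 genes (Zbp1, Oas3, Ifitm2, Ifitm3, Ifitm6, Gbp2, Gbp3 and Ifi47), which is 19.5%, the same share as the 19.5% of all genes tested. Between IM1 and IM2, 0 genes were higher in IM1 by edgeR and 2 were lower (all genes: 0.49% and 1.22%). At an unadjusted p under 0.05, 2 were higher and 6 lower. Both DESeq2 and limma called 0 higher and 3 lower, where they called 573 and 934 of all genes in either direction. Between IM1 and IM3, 7 were higher in IM1 and 3 lower (all genes: 12.7% and 11.7%). Between IM2 and IM3, 5 were higher in IM2 and 1 lower (all genes: 6.49% and 4.94%). In the pairwise comparisons, 30 genes were called in none, 4 in 1 and 7 in 2. Receptor subunits, transcription factors and IFIT genes were among those called in none.

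**Figure D4:**
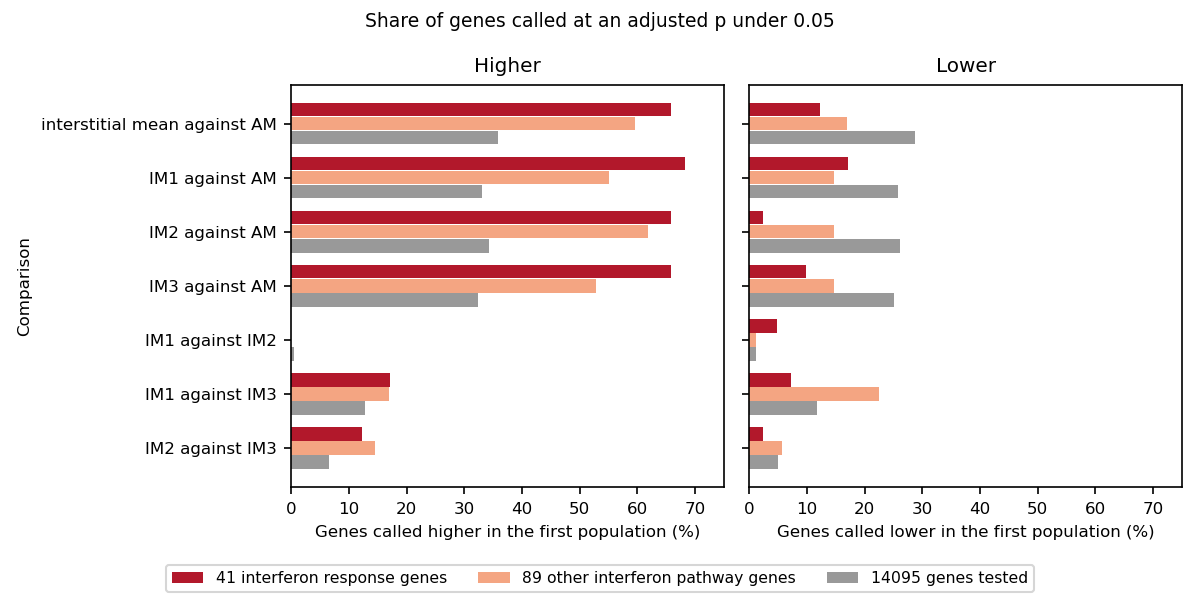
Percentage of the 41 interferon response genes (dark red), 89 other interferon pathway genes (light red) and 14095 genes tested (grey) that were called higher (left) or lower (right) in the first population of each comparison at an adjusted p under 0.05. The interferon response genes exceed all genes on the left for the 4 comparisons with AM (65.9% against 35.9% for the interstitial mean), and between pairs of interstitial populations no share exceeds 22.5%.

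Among the IFITM genes, 3 of 4 were higher in IM1 and IM2 than in IM3. Ifitm3 was 2.25 ± 0.32 log2 units higher in IM1 than in IM3 (adjusted p 9.07e-05) and 1.83 ± 0.32 higher in IM2 (adjusted p 0.000958). For Ifitm6 the differences were 3.65 ± 0.54 (adjusted p 0.000243) and 3.51 ± 0.54 (adjusted p 0.000589), and for Ifitm2 they were 1.43 ± 0.27 (adjusted p 0.00118) and 1.09 ± 0.27 (adjusted p 0.014). Ifitm1 did not pass the test in either pair (log2 0.82 and 0.41). Without IM1 A, the differences between IM1 and IM3 were 1.68 for Ifitm3, 3.10 for Ifitm6 and 0.95 for Ifitm2, and all 3 remained called. The call for Ifitm2 between IM2 and IM3 was lost without IM2 A (log2 0.83, adjusted p 0.0869), without IM3 B (1.11, adjusted p 0.0503) and without IM3 C (0.97, adjusted p 0.0708).

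Gbp3 ran in the opposite order, being lower in IM1 than in IM3 (log2 -1.39 ± 0.15, adjusted p 7.3e-06) and lower in IM2 than in IM3 (log2 -0.82 ± 0.15, adjusted p 0.0017). The difference between IM1 and IM2 was -0.57 ± 0.15 and did not pass the test (adjusted p 0.0759). Ifi47 was higher than IM3 in IM1 (log2 0.85 ± 0.18, adjusted p 0.00249) and in IM2 (log2 0.93 ± 0.18, adjusted p 0.00203). Gbp2 was highest in IM2. It was lower in IM1 than in IM2 (log2 -0.80 ± 0.17, adjusted p 0.0245), and higher in IM2 than in IM3 by 0.61 ± 0.17 (adjusted p 0.027). Both calls were lost without IM2 C (adjusted p 0.13 and 0.156) and without IM2 B (adjusted p 0.082 and 0.059), and the call between IM2 and IM3 also without any 1 of the IM3 libraries (adjusted p 0.0771 to 0.0899).

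Oas3 was lower in IM1 than in IM2 (log2 -1.60 ± 0.36, adjusted p 0.0356) and than in IM3 (log2 -1.63 ± 0.36, adjusted p 0.00394). The former call was lost in 7 fits without 1 library, with the adjusted p reaching 0.184 without IM2 B. Ifih1, Rsad2, Bst2 and Igtp were called between IM1 and IM3 only, at log2 -0.55 ± 0.19, 0.65 ± 0.22, 0.72 ± 0.22 and 0.54 ± 0.18 and adjusted p of 0.0463, 0.0435, 0.0256 and 0.0401. None of these 4 calls held without IM1 A (adjusted p 0.131, 0.116, 0.121 and 0.105), and Bst2 was then 0.35 apart. None held without IM3 A either (adjusted p 0.0911, 0.114, 0.0701 and 0.0946). With the replicate letter as a block, Zbp1 (log2 0.54, adjusted p 0.0393) and Oas2 (log2 0.66, adjusted p 0.0345) were called higher in IM2 than in IM3, where without it they were not (adjusted p 0.062 and 0.0697).

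Library IM1 A touched many of these values. It was the highest IM1 library for 27 of the 41 genes (65.9%), beside 38.9% of all genes tested. The 12 interferon genes with models of up to 2104 bases lay at a median of 0.50 log2 units above their IM1 mean in IM1 A, and the 6 with at least 5592.5 bases at -0.22, beside 0.23 and -0.17 for all genes of those lengths. Ifitm3 (678 bases) was 0.86 above its IM1 mean in this library and Ifnar1 (5879 bases) 0.55 below, as log2(CPM + 1). AM A was the lowest AM library for 30 of the 41 genes, and IM3 C the lowest IM3 library for 29. What sets these libraries apart was not tested.

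**Figure D5:**
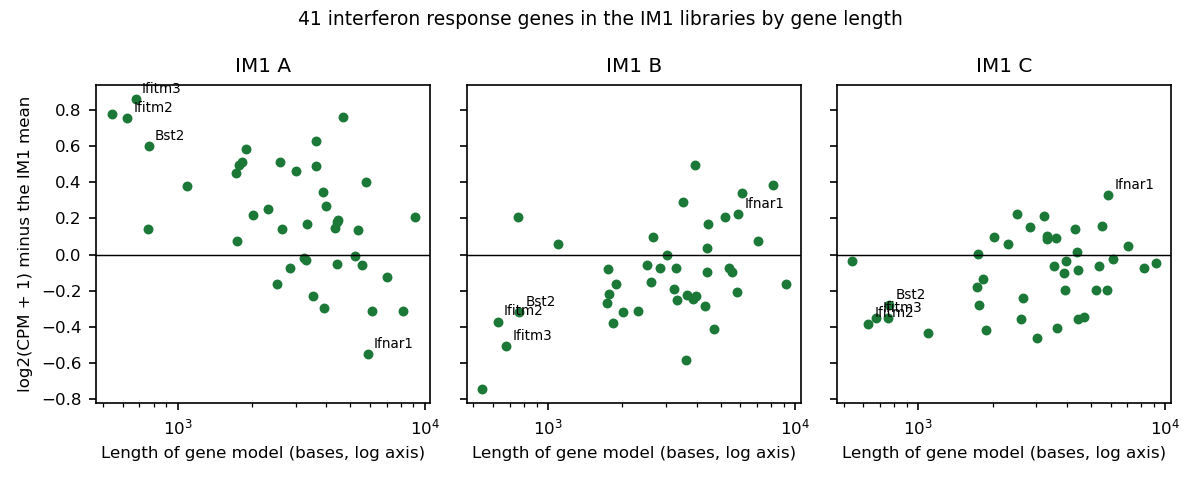
Deviation of each of the 41 interferon response genes from its IM1 mean, as log2(CPM + 1), against the length of its gene model in bases (log axis), for IM1 A, B and C. In IM1 A the short Ifitm2, Ifitm3 and Bst2 lie above 0 and the long Ifnar1 below, and in IM1 B the same genes lie on the other side of 0.

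A further 113 genes of the interferon pathway put the list in context, of which 111 had an identifier and 89 passed the filter on low counts. In the interstitial mean against AM, 53 of these 89 genes (59.6%) passed the test as higher and 15 (16.9%) as lower, beside 35.9% and 28.7% of all genes, and their median log2 fold change was 0.61, beside 0.1. Among IM1, IM2 and IM3, 34 of the 89 (38.2%) were called as different, beside 19.5% of all genes. None of the 21 interferon genes themselves passed the filter: 17 had no count in any library, and no ligand exceeded 0.221 CPM in any library. Ifnb1, the gene of interferon beta, had 2 counts in IM3 and none elsewhere. Of the kinases next to the receptors, Jak1 (log2 0.19 ± 0.12, adjusted p 0.178), Jak2 (0.25 ± 0.14, adjusted p 0.135) and Tyk2 (-0.35 ± 0.16, adjusted p 0.0715) did not pass the test.

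The pathway genes with the largest differences from AM were GTPases and a DNA-binding protein. Iigp1, an immunity-related GTPase, had means of 0.0947 CPM in AM and 17.1 in the interstitial libraries (log2 7.04 ± 0.57, adjusted p 2.13e-08). Ifi213, of the interferon-inducible p200 family, differed by 6.41 ± 0.39 (adjusted p 6.21e-10), from a mean of 0.0946 CPM in AM. The AM means of Iigp1 and Ifi213 lay under the 0.21 to 0.221 CPM that 3 counts give in an AM library. Their fold changes therefore rest on few AM counts. The T-cell-specific GTPases Tgtp2 and Tgtp1, which are near-identical copies, differed by 5.84 ± 0.34 and 5.50 ± 0.30 (adjusted p 4.51e-10 and 1.83e-10). Between interstitial populations, Ly6e, a membrane protein that restricts coronaviruses, had means of 3830 CPM in IM1, 3150 in IM2 and 534 in IM3, and was 2.84 ± 0.21 and 2.56 ± 0.21 log2 units above IM3 (adjusted p 1.19e-07 and 7.9e-07). Iigp1, like Ifi47, was higher in IM1 and IM2 than in IM3, at 2.13 ± 0.35 and 2.41 ± 0.35 above IM3 (adjusted p 0.000289 and 0.000174). Gbp8, like Gbp3, was lower in IM2 than in IM3 (log2 -2.28 ± 0.25, adjusted p 1.63e-05). Ifnlr1, a chain of the receptor for type III interferons, was lower in IM1 than in IM3 (log2 -2.70 ± 0.87, adjusted p 0.0378) at means of 0.181 and 1.16 CPM, and Gbp2b, like Gbp2, was lower in IM1 than in IM2 (log2 -1.15 ± 0.24, adjusted p 0.0204).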

How the data were processed

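The deposited counts of reads per gene came, per the file headers, from featureCounts with unstranded counting on Ensembl 78 models, without reads that fit several places or genes. The submitters' processing notes name STAR 2.5.1b, Subread 1.5.0-p1 and mm10, with DESeq2 1.8.1 and R 3.2.0. The 38 runs were summed to 12 libraries, equal to the deposited table of libraries (0 cells differed). Of 43346 identifiers, 42462 (98.0%) had a GENCODE M21 symbol.

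Counts were tested with edgeR 4.0.16 under R 4.3.3: filterByExpr (minimum count 10, 14095 genes), TMM scaling, robust quasi-likelihood F test, 12 libraries, population as the only term, Benjamini-Hochberg adjustment over 14095 genes, threshold 0.05. SE came from the F statistic. CPM were computed from the counts, and levels per kb used the gene lengths that the authors deposited. Zero counts were taken as 3 counts per group. Intervals and limits cover counting error only. In simulated data, few genes differed (50 at each size of change, among 13705 tested), and only in IM3. There the test of IM3 against AM called 8 of 50 genes changed by 0.5 log2 units. It called 41 of 50 genes changed by 1. In the real data this comparison called 8094 genes, and with so many calls the adjusted threshold is easier to pass. The simulated rates therefore do not apply to it. Alternatives were RLE and upper-quartile scaling, no filter, DESeq2 1.42.0, limma 3.58.1 (voom with quality weights), only the populations compared, an added fold limit, the replicate letter as a block, and each library left out.

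Same-letter libraries deviated together between IM1 and IM2 (r 0.23 to 0.39) and between IM2 and IM3 (r 0.14 to 0.26); this pairing comes from the data, not from the labels. The members and lists were chosen with earlier results of these data known. Values in every library are given for genes with a called difference from AM of at least 2 log2 units, for genes called in 2 or more interstitial pairs, and for receptors and transcription factors. Pathway genes named are the 4 called genes with the largest difference in each comparison used, with Jak1, Jak2 and Tyk2; some genes that these rules name are not reported here. Gbp5 and Gbp6 had no identifier and were not analysed here.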

Additional observations from a re-analysis of the deposited data

Results flagged for a closer look

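The differences below stand out because the effect of an interstitial population against AM differed from that of another interstitial population by the test of the difference itself (edgeR, adjusted over 14095 genes), which is the pairwise comparison of those populations. Between IM1 and IM2, the effects were lower in IM1 for Oas3 (-1.60 log2 units, SE 0.36, adjusted p 0.0356) and for Gbp2 (-0.80, SE 0.17, adjusted p 0.0245).

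Between IM1 and IM3, the log2 fold change against AM was higher in IM1 for Ifitm6 by 3.65, Ifitm3 by 2.25 and Ifitm2 by 1.43. The same held for Ifi47 by 0.85, Bst2 by 0.72, Rsad2 by 0.65 and Igtp by 0.54. This fold change was lower in IM1 for Oas3 (-1.63), Gbp3 (-1.39) and Ifih1 (-0.55). Between IM2 and IM3, it was higher in IM2 for Ifitm6 by 3.51, Ifitm3 by 1.83 and Ifitm2 by 1.09. It was also higher for Ifi47 by 0.93 and Gbp2 by 0.61, and lower for Gbp3 (-0.82). Higher and lower refer to the signed value. Oas3 lay further from AM (mean 4.42 CPM) in IM1 (1.43) than in IM3 (4.46). Gbp2 lay further from AM (30.4) in IM3 (18.2) than in IM2 (27.8). The calls for Bst2, Rsad2, Igtp and Ifih1 between IM1 and IM3 were lost without IM1 replicate A and without any 1 IM3 library. Those for Oas3 between IM1 and IM2, Gbp2 in both pairs and Ifitm2 between IM2 and IM3 were also lost in some fits without 1 library. The standard error and adjusted p of each difference stand with the pairwise comparisons in the report.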

How the results depend on the processing

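For the interstitial mean against AM and for genes called in another comparison, direction and call were kept in 2763 of 2863 recomputed values, while 91 lost the call, 6 gained it and 3 changed sign without being called. The latter were Oasl1 in the interstitial mean against AM without AM replicate A (log2 -0.18) and without IM1 replicate A (-0.04), and Rsad2 without AM replicate A (-0.06); with 1 library left out, Oasl1 ranged from -0.18 to 0.29 and Rsad2 from -0.06 to 0.08. Most of the 2863 values belong to comparisons with AM, but most of the 91 lost calls were between interstitial populations. Calls between interstitial populations were thus less stable than the pooled count shows. For genes not called in a comparison of 2 populations, 65 of 2544 values gained a call, 13 of them without IM1 replicate B and 11 under limma. Requiring an absolute log2 fold change of at least 1 as well left 23 of the interferon genes called in IM1 against AM and 20 in IM3 against AM. It left 1 between IM1 and IM2, 5 between IM1 and IM3 and 3 between IM2 and IM3. Over all genes it left 5222, 5021, 162, 1633 and 869 in the same order. Fitting only the populations compared gave 0, 6 and 11 for the 3 interstitial pairs in that order, beside 71, 2268 and 2143 over all genes. Limma with quality weights called 13 interferon genes as different among the interstitial populations, beside 4037 over all genes. The main fit called 241, 3445 and 1611 of all genes for these pairs and 2746 for any difference. With 1 library left out, counts of interferon genes called were 30 to 33 for the interstitial mean against AM. They were 33 to 36 for IM1, 27 to 29 for IM2 and 28 to 32 for IM3 against AM. Over all genes, 8208 to 9897, 7630 to 8620, 7734 to 9405 and 7252 to 8980 were called in that order. The counts of interferon genes were 0 to 6 between IM1 and IM2, 6 to 15 between IM1 and IM3, 4 to 9 between IM2 and IM3 and 7 to 15 for any difference. Calls over all genes were then 110 to 1904, 2441 to 4672, 1143 to 2247 and 1907 to 4338. The highest values for IM1 against IM2, IM1 against IM3 and any difference (6, 15 and 15) came without IM1 replicate B, where calls over all genes also rose (from 241 to 1904, 3445 to 4672 and 2746 to 4338), and 0 between IM1 and IM2 came without IM2 replicate B. Between IM1 and IM3 the count was 6 without IM1 replicate A or any 1 IM3 library; between IM2 and IM3 it was 4 without IM3 replicate B or C and 9 without IM1 replicate A. With the replicate letter as a block, 33 interferon genes were called for the interstitial mean. There were 35, 29 and 31 for IM1, IM2 and IM3 against AM, 2, 12 and 8 for the interstitial pairs, and 10 for any difference. Over all genes, the block gave 9302 calls for the interstitial mean and 8513, 8707 and 8312 for IM1, IM2 and IM3 against AM. It gave 392, 3919 and 1814 for the interstitial pairs and 3182 for any difference. Same-letter libraries did not deviate together between AM and the others (r -0.10 to 0.08) or in every pair of IM1 and IM3 (r -0.19 to 0.25). Such correlations cannot show whether a letter stands for a shared animal or sort day, which the labels do not say. Under that block the call for Ifit3 in IM3 against AM was lost (adjusted p 0.0556) and calls were gained for Zbp1 in the interstitial mean (adjusted p 0.0346), Ddx58 in IM2 and Ifit2 in IM3 against AM (0.0354 and 0.0174), Ifit2 and Oas2 between IM1 and IM3 (0.0249 and 0.0381), and Oas2 and Bst2 for any difference (0.0418 and 0.036). No scaling moved the median of all genes by more than 0.06. A difference in a gene near 0.189 to 0.262 CPM, such as Ifi44, is at the limit of the depth.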
